A study of Mus musculus with 12 samples.

Results

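The Mir532-Mir188 cluster is a group of 5 miRNA genes (Mir532, Mir188, Mir362, Mir501 and Mir500) that lie on the minus strand inside Clcn5, a protein-coding gene of the X chromosome. Together with their host gene they made up 6 of the 32101 features of the deposited small RNA table, and they were chosen by name and by their place in 1 intron, with the RPM levels of the 3 genotypes below already known. Mature miRNAs are cut from hairpin precursors, first by Drosha in the nucleus and then by Dicer in the cytoplasm, and they guide ARGONAUTE proteins to transcripts that pair with their seed, the bases near the 5′ end. An intronic miRNA on the strand of its host is often cut from the host's transcript. Clcn5 encodes an endosomal chloride/proton exchanger known best from the kidney.

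Small RNAs of 20 to 24 nt were sequenced from mouse ESCs, which the labels give as background strain E14, in 12 libraries of 3 genotypes. WT was sequenced in 6 libraries, numbered 1A to 3B, of which the pair 2A and 2B carries the title E14 2. Dnmt1 KO was sequenced in 2, A and B, and Dicer/Dnmt1 KO in 4, numbered 1A to 2B. DNMT1 is the enzyme that copies DNA methylation onto newly made DNA, and Dicer makes the last cut of a miRNA. The study's methods describe a C57BL/6 line in which floxed Dnmt1 was deleted by a tamoxifen-induced Cre. From it, CRISPR and single colonies gave a line carrying floxed Dicer as well and a line with Dicer constitutively deleted. The labels do not say which of these the Dicer/Dnmt1 KO libraries come from, and a genotype may stand for 1 line. Where the paper shows small RNA-seq of the conditional double knockout, it takes non-induced cells with floxed Dicer and Dnmt1 as WT. Nothing in the labels ties the WT libraries to those cells. If the WT libraries are from another line, line and genotype cannot be told apart. No age, dose or day of induction is given per library. Libraries A and B of 1 number may be repeat libraries of 1 culture, so p values measure the spread between libraries, which may be partly technical.

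Library reads ran from 8710 to 245184, and 1 read was worth from 4.08 RPM (library reads scaled to a common total) in the deepest to 115 RPM in the shallowest library. WT 2A, with 16142 reads, and Dicer/Dnmt1 KO 1B, with 8710, were the shallowest. All miRNAs of the table summed to between 289387 and 693285 RPM in WT, 625721 and 652561 RPM in Dnmt1 KO, and 64409 and 114124 RPM in Dicer/Dnmt1 KO. The ESC markers Mir290 to Mir295, Mir302a to Mir302d and Mir367 had reads in 12 of 12 features, and their sum was 28683 to 93275 RPM in WT. Neuronal and muscle miRNA markers in the table had 0 reads in all libraries. Of the deleted genes, Dnmt1 had 0 to 18 reads a library in WT, 8 and 9 reads in the Dnmt1 KO pair and from 2 to 6 with Dicer also deleted, and Dicer1 had at most 3 in any library. Reads of 20 to 24 nt inside a gene do not measure its messenger RNA and may lie outside the deleted exons, so they check neither deletion.

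In the coordinates of NCBIM37, the build of the files, Clcn5 covers chrX:6730936-6896484. Mir532 is the most 5′ hairpin at chrX:6825528-6825623. Mir188 follows 345 bp downstream at chrX:6825115-6825182. Mir362, at chrX:6819108-6819172, lies a further 5942 bp away. Mir501 is at chrX:6818369-6818477 and Mir500 at chrX:6814809-6814900. In the annotation of that build, 3 of 5 Clcn5 transcripts span the cluster, none has an exon there, and all 5 hairpins sit in the same intron of 103648 bp (chrX:6790137-6893784). The hairpins cover 430 bp, or 0.26% of the host gene.

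The mature sequences below are shown because some share a seed. Reads were counted per miRNA gene, so the arm that a read came from is not known. They are RefSeq sequences of build GRCm38.p6, which held 9 mature forms of the members, and capitals mark the seed (bases 2 to 8). The 5p form of Mir532 was not among them and is named only, so the Mir532 reads cannot be assigned to miR-532-3p.
miR-532-3p: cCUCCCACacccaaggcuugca
miR-188-3p: cUCCCACAugcaggguuugca
miR-188-5p: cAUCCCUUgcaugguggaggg
miR-362-5p: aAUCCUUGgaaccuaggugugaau
miR-500-5p: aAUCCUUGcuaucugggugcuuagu
miR-501-5p: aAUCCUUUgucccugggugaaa
miR-362-3p: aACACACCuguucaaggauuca
miR-500-3p: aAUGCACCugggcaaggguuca
miR-501-3p: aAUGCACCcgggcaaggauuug

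Some of the sequences are related. Mir500 and Mir362 share the 5p seed AUCCUUG, and Mir500 and Mir501 share the 3p seed AUGCACC. The 3p forms of Mir500 and Mir501 are identical at 18 of 22 aligned positions, the closest pair of mature forms. Aligned hairpins were 42.7% to 67.3% identical, and Mir532 was 42.7% to 53.2% identical to the others. The 3p forms of Mir532 and Mir188 share a run of 8 bases, CUCCCACA, which starts at base 2 of miR-532-3p and at base 1 of miR-188-3p, so their seeds overlap with a shift of 1 base but are not the same seed. Outside the cluster, among 1738 mature forms, miR-329-3p has the seed of miR-362-3p and miR-7061-3p that of miR-188-5p. Each of the 9 mature sequences had exactly 1 exact match in NCBIM37, so a full-length read without mismatches can be placed, while shorter or mismatched reads between Mir500 and Mir501 are less certain. The annotated miR-500-5p has 25 nt, above the 24 nt kept, so only shorter forms of it can be among the reads.

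The hairpins of the most and the next most read gene are given because they are neighbours in the intron. Capitals mark the annotated mature forms.
Mir532: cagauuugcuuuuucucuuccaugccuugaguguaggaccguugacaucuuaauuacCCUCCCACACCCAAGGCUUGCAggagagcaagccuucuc
Mir188: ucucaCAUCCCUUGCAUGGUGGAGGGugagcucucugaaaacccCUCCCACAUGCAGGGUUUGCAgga

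All 5 RefSeq hairpins were identical to the NCBIM37 sequence of the deposited intervals. The predicted folding energy of Mir532 was -33.2 kcal/mol, or -0.35 per base, against -0.42 per base for Mir188 and a median of -0.41 over 1005 hairpins. The most read hairpin was thus the one with the weakest predicted fold per base of the 5.

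Nearly all reads of the cluster came from Mir532. Over the 12 libraries Mir532 had 545 reads, Mir188 had 19, Mir501 had 11, and Mir362 and Mir500 had 4 each. Mir532 was 93.5% of the reads of the 5 miRNAs (95% Wilson interval 91.2% to 95.2%). This share was 93.7% in WT, 93.9% in Dnmt1 KO and 89.2% in Dicer/Dnmt1 KO, with intervals that overlap. Mir188, only 345 bp from Mir532 in the same intron, therefore left far fewer reads. Intervals here and below cover counting error only.

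Mir532 in WT ranged from 186 RPM in 2A over a median of 363 RPM to 613 RPM in 2B. In Dnmt1 KO it was 916 RPM in A and 1282 RPM in B. The Dicer/Dnmt1 KO libraries had 163 RPM in 1A, 229.6 RPM in 1B, 205 RPM in 2A and 92.9 RPM in 2B. Both Dnmt1 KO libraries were above every WT library, and the Dicer/Dnmt1 KO libraries overlapped only with WT 2A. The lowest values rest on few reads: WT 2A had 3 reads of Mir532 (95% Poisson interval 38.3 to 543 RPM) and Dicer/Dnmt1 KO 1B had 2 (27.8 to 829.5 RPM). The WT mean was 385 ± 157 RPM (SD, n = 6). The Dnmt1 KO mean was 1099 ± 259 RPM (SD, n = 2), and the Dicer/Dnmt1 KO mean was 173 ± 59.8 RPM (SD, n = 4). Without WT 2A the WT mean was 425 ± 138 RPM (SD, n = 5), and without Dicer/Dnmt1 KO 1B that group's mean was 154 ± 56.6 RPM (SD, n = 3).

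**Figure D1:**
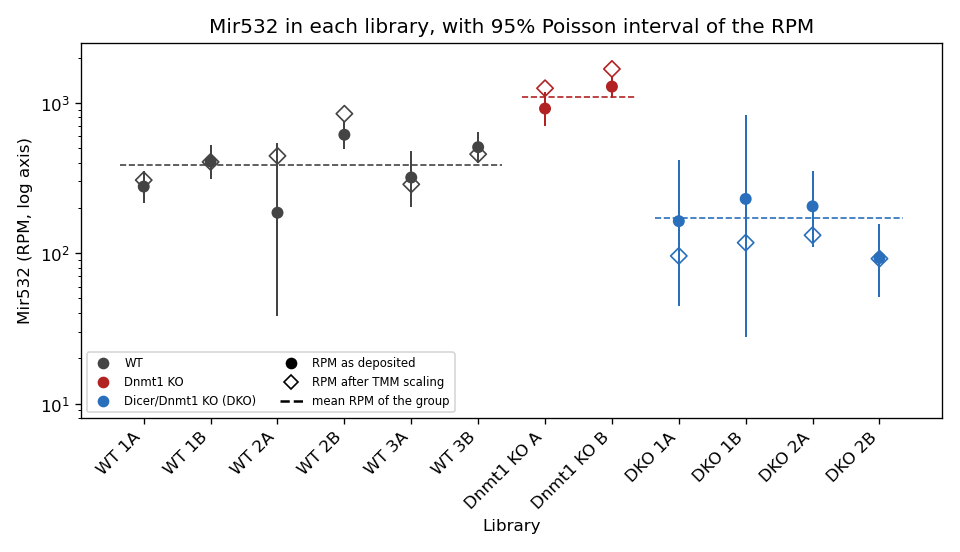
Mir532 in each library in RPM on a log axis, with filled circles for the deposited RPM and their 95% Poisson intervals, open diamonds for RPM after TMM scaling, and dashed lines for the group means of the deposited RPM. DKO stands for Dicer/Dnmt1 KO. The Dnmt1 KO libraries, at 916 and 1282 RPM, sit above all WT libraries, and after scaling the Dicer/Dnmt1 KO libraries sit below all of them. For WT 2A this rests on 3 reads and a scaling factor of 0.42.

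Clcn5 in this table was a second reading of the same molecules. Reads inside a miRNA were counted for the miRNA and for its host, and of the 594 reads listed for Clcn5, 583 (98.1%, Wilson interval 96.7% to 99.0%) lay in the 5 miRNAs. The mean of Clcn5 was therefore 413 ± 167 RPM (SD, n = 6) for WT, 1179 ± 225 RPM (SD, n = 2) for Dnmt1 KO and 211 ± 92.1 RPM (SD, n = 4) for Dicer/Dnmt1 KO. These levels say little of the messenger RNA of the exchanger, which was not measured here. Mir532 and Clcn5 are counted as 1 measurement in what follows.

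Outside the miRNAs, Clcn5 had 3 reads in WT, 0 in Dnmt1 KO and 8 in Dicer/Dnmt1 KO. The WT reads were 2 in 1A and 1 in 2B, and the Dicer/Dnmt1 KO reads were 4 each in 2A and 2B. The share of Clcn5 reads inside the miRNAs was 99.1% in WT (Wilson interval 97.4% to 99.7%), 100% in Dnmt1 KO (98.2% to 100%) and 82.2% in Dicer/Dnmt1 KO (68.7% to 90.7%). The 2 deeper Dicer/Dnmt1 KO libraries, 2A at 81.0% and 2B at 77.8%, were below every other library, and 1A and 1B had only 4 and 2 Clcn5 reads. With the miRNA reads taken off and no filter, the log2 fold changes of Clcn5 changed sign, to -0.32 in Dnmt1 KO against WT, 0.73 in Dicer/Dnmt1 KO against WT and 1.05 in Dicer/Dnmt1 KO against Dnmt1 KO, with adjusted p of 0.832, 0.743 and 0.916 in limma.

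TMM scaling gives each library a factor, the mean of its log ratios to a reference library after the extreme ratios and abundances are cut off. Genotypes were compared with limma on log2(RPM + 10) after this scaling, in 1 fit over the 683 features with enough reads. Mir532 and Clcn5 passed that filter, with 111 RPM or more in 11 and 12 libraries, and the other 4 members did not reach it in any library. As the members were chosen with these levels known, the fitted values below are a description, and the adjusted p values are not independent evidence.

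In Dnmt1 KO against WT, Mir532 was higher by 1.74 on the log2 scale (SE 0.47, adjusted p = 0.0441 in limma) and Clcn5 by 1.75 (SE 0.49, adjusted p = 0.0483). This is 1 set of reads listed under 2 members, both called, where 6.88% of all features were called. Its RPM ranges in the groups did not overlap, which held for 23.0% of all features. The call is marginal. It was lost in 7 of 12 fits that left out 1 library, with Mir532 at an adjusted p of 0.0729 without WT 1A, 0.0741 without WT 1B, 0.128 without WT 3A, 0.0631 without WT 3B, 0.348 without Dnmt1 KO A, 0.558 without Dnmt1 KO B and 0.0872 without Dicer/Dnmt1 KO 2A. The Mir532 fold change in these 12 fits stayed between 1.61 and 2.2. The call was also lost with scaling factors taken from all features with a read, a variant that was run first (1.64, SE 0.73, adjusted p = 0.315), with library reads as the only scaling (1.57, adjusted p = 0.206), and with A and B of a culture summed (1.93, adjusted p = 0.367). It was lost as well with culture as a random effect at its estimated correlation (adjusted p = 0.148), with a pseudocount of 1 (adjusted p = 0.0672), with only WT and Dnmt1 KO in the fit (adjusted p = 0.0743) and without a filter (adjusted p = 0.832). Summing A and B, or leaving out either Dnmt1 KO library, leaves 1 Dnmt1 KO sample, which is then assumed to vary like the other groups. All alternatives kept the direction of Mir532.

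In Dicer/Dnmt1 KO against WT, Mir532 fell by 1.89 on the log2 scale (SE 0.38, adjusted p = 0.00150 in limma) and Clcn5 fell by 1.74 (SE 0.39, adjusted p = 0.00358). The shared reads were called under both names, where 24.2% of all features were called. The deposited RPM ranges of the groups overlapped for Mir532 and for Clcn5, whereas they did not overlap for 23.3% of all features. After TMM scaling, Mir532 ranged from 287 to 846 RPM in WT and from 92.0 to 132 RPM in Dicer/Dnmt1 KO, and these scaled ranges did not overlap, which held for 21.7% of all features. The scaling factors were 0.42 to 1.11 in WT and 1.01 to 1.96 in Dicer/Dnmt1 KO. The factor of 0.42 was that of WT 2A, the only WT library in the overlap of Mir532 before scaling. It took WT 2A from 186 to 444 RPM on 3 reads, so the scaled separation depends on this factor. With library reads as the only scaling, Mir532 differed by -1.08 (SE 0.48, adjusted p = 0.106), while the median of all features moved up by 0.70. Relative to the median of all features, Mir532 was at -1.80 with TMM and -1.69 with library reads alone. The call was also lost with A and B summed, at -1.96 (SE 0.62, adjusted p = 0.0845). Without Dnmt1 KO A, Clcn5 lost its call (-1.49, adjusted p = 0.0522) and Mir532 kept it (-1.64, adjusted p = 0.0300).

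In Dicer/Dnmt1 KO against Dnmt1 KO, the comparison in which both groups lack Dnmt1, Mir532 fell by 3.63 on the log2 scale (SE 0.50, adjusted p = 9.23e-05 in limma) and Clcn5 fell by 3.49 (SE 0.52, adjusted p = 0.000148). The shared reads were again called under both names, where 22.8% of all features were called, and their RPM ranges did not overlap, which held for 55.9% of all features. The 3 comparisons share libraries, so the larger fold here follows from the other two. Mir532 stayed below an adjusted p of 0.05 in 23 of 24 alternatives, all but the fit without a filter (adjusted p = 0.0688), and its fold change lay between -3.89 and -2.65. In 3 of the 24, with A and B summed and without either Dnmt1 KO library, the spread of the lone Dnmt1 KO sample was taken from the other groups.

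**Figure D2:**
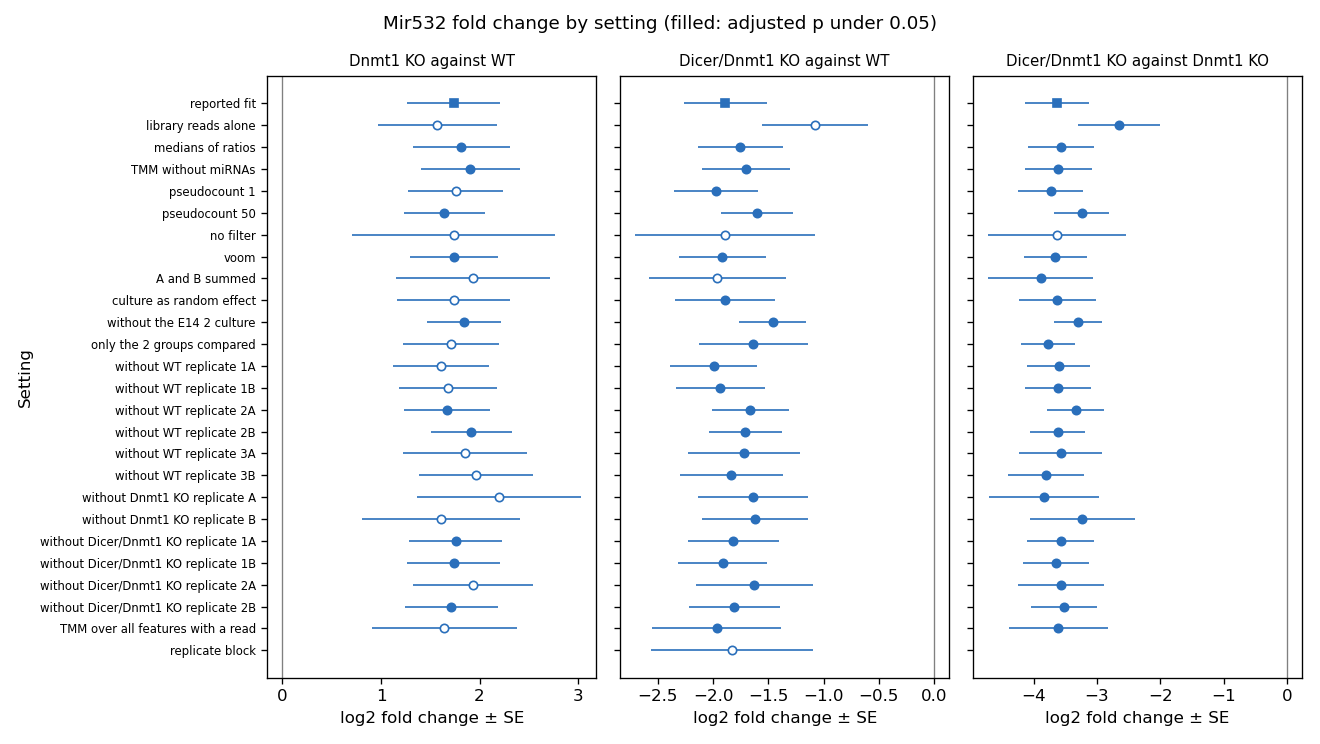
The log2 fold change of Mir532 with its SE in each of the 3 comparisons, 1 row per setting, with filled points where the adjusted p was under 0.05. The direction was the same in every setting, and the call held in 10 of 24 alternatives for Dnmt1 KO against WT, 21 of 25 for Dicer/Dnmt1 KO against WT and 23 of 24 for Dicer/Dnmt1 KO against Dnmt1 KO.

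Mir532 was close to the middle of the miRNAs in each comparison. Of 132 miRNAs tested it ranked 52nd by mean RPM in WT, 44th in Dnmt1 KO and 40th in Dicer/Dnmt1 KO. Its log2 fold change in Dnmt1 KO against WT was 1.74, where the median miRNA was at 1.40 and 28 were called higher and 1 lower. Against WT, Dicer/Dnmt1 KO had it at -1.89, where the median miRNA was at -2.79 and 16 were called higher and 81 lower. Between the 2 knockouts it was at -3.63, where the median miRNA was at -4.18 and 99 of 132 were called lower. As a share of all miRNA reads, a measure that library scaling does not touch, the mean of Mir532 was 0.0966% ± 0.0390 (SD, n = 6) for WT, 0.173% ± 0.0457 (SD, n = 2) for Dnmt1 KO and 0.211% ± 0.103 (SD, n = 4) for Dicer/Dnmt1 KO. These means weigh all libraries alike, also WT 2A with 3 reads of Mir532 and Dicer/Dnmt1 KO 1B with 2. Pooled over reads, the share was 0.109% in WT (Wilson interval 0.0975% to 0.122%) and 0.179% in Dnmt1 KO (0.156% to 0.206%). In Dicer/Dnmt1 KO it was 0.165% (0.117% to 0.231%). The highest WT library, 3B at 0.141%, overlapped with Dnmt1 KO A at 0.140% and with Dicer/Dnmt1 KO 2B at 0.133%. The lower Mir532 level of Dicer/Dnmt1 KO thus came with fewer miRNA reads as a whole, and its mean share among them was not below that of WT.

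**Figure D3:**
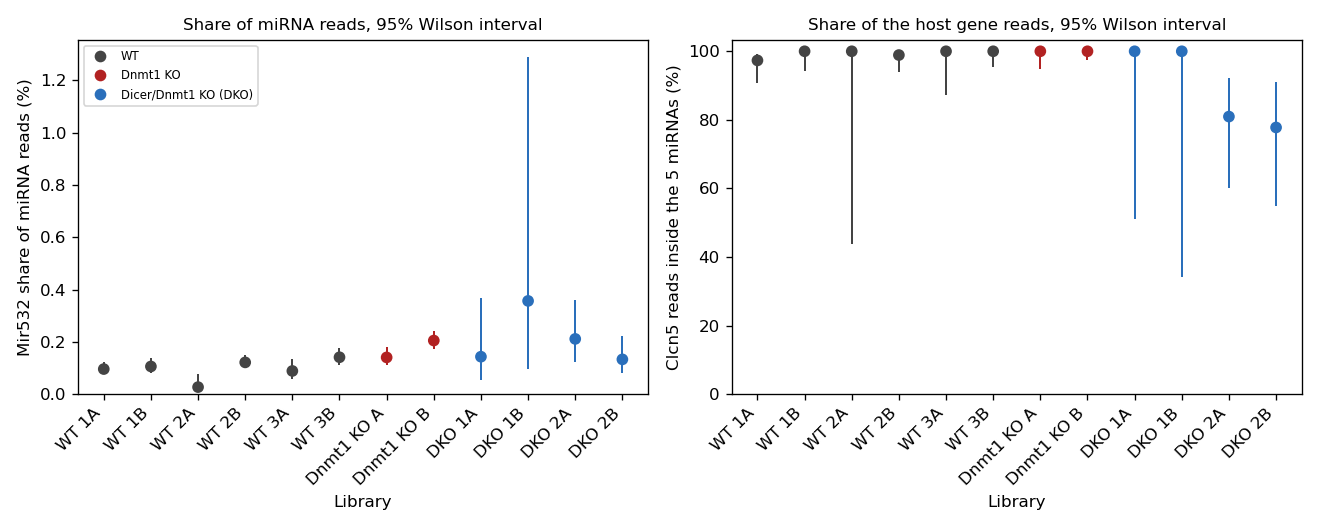
Left, Mir532 as a percentage of all miRNA reads in each library, and right, the percentage of Clcn5 reads that lay in the 5 miRNAs, both with 95% Wilson intervals. Mir532 shares run from 0.0268% in WT 2A to 0.357% in Dicer/Dnmt1 KO 1B, which has 2 reads, and 81.0% and 77.8% of Clcn5 reads lay in miRNAs in Dicer/Dnmt1 KO 2A and 2B.

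The other 4 miRNAs had at most 5 reads in any library, and no fold is given for them. Mir188 had 16 reads in WT, with 5, 1, 0, 2, 3 and 5 in the libraries 1A to 3B. It had 1 read in each Dnmt1 KO library and 1 read in all Dicer/Dnmt1 KO libraries. Pooled over a genotype, Mir188 was at 21.0 RPM in WT (95% Poisson interval 12 to 34.1), 11.4 RPM in Dnmt1 KO (1.38 to 41.2) and 4.04 RPM in Dicer/Dnmt1 KO (0.102 to 22.5). The 3 intervals overlap, which is not a test of a difference. In the fit without a filter, Mir188 in Dicer/Dnmt1 KO against WT had an unadjusted p of 0.0419 and an adjusted p of 0.743 in limma. Its unadjusted p was 0.983 in Dnmt1 KO against WT and 0.134 between the knockouts.

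Mir501 had 2 reads in WT, 1 each in 1B and 2B. It had 3 reads in each Dnmt1 KO library, and 3 in Dicer/Dnmt1 KO, all in 2A. Its pooled level was 2.62 RPM in WT (0.318 to 9.47), 34.2 RPM in Dnmt1 KO (12.6 to 74.5) and 12.1 RPM in Dicer/Dnmt1 KO (2.50 to 35.4). The intervals of WT and Dnmt1 KO do not overlap, yet in the fit without a filter, over 14232 features, its adjusted p in limma was 0.113. Mir500 had 1 read in WT, in 3B, 1 and 2 in Dnmt1 KO A and B, and 0 in Dicer/Dnmt1 KO. Mir362 had 1 read each in WT 1B and 2B, 2 in Dnmt1 KO A and 0 in Dicer/Dnmt1 KO. A count of 0 over the 4 Dicer/Dnmt1 KO libraries allows up to 12.1 RPM by the limit of 3 reads and up to 14.9 RPM by the 95% Poisson interval. In the fit without a filter limma called 0 of 6 members in any comparison, where 0.429%, 0.998% and 1.23% of all features were called in Dnmt1 KO against WT, Dicer/Dnmt1 KO against WT and Dicer/Dnmt1 KO against Dnmt1 KO. An unadjusted p under 0.05 was found for 2, 3 and 5 of the 6 members in the same order, where this held for 6.95%, 5.85% and 7.22% of all features, and the last 2 of these counts include Mir532 and Clcn5, which are 1 set of reads.

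**Figure D4:**
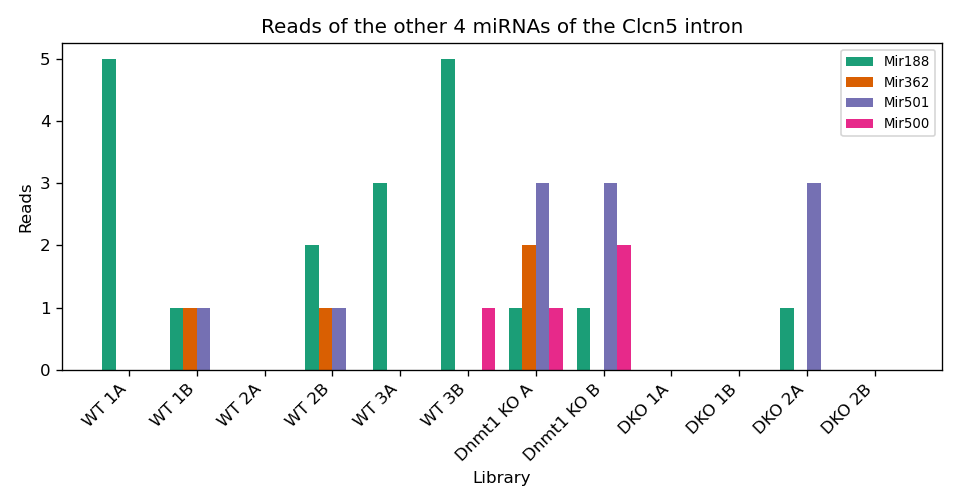
Reads of Mir188, Mir362, Mir501 and Mir500 in each library, in whole reads, in the order of the hairpins along the intron. Mir188 holds 16 of the 21 reads in WT and 2 of the 13 in Dnmt1 KO.

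The split of these few reads over the 4 genes is given as counts. Mir188 gave 16 of 21 reads in WT (76.2%, Wilson interval 54.9% to 89.4%) and 2 of 13 in Dnmt1 KO (15.4%, 4.33% to 42.2%). In WT the share was 5 of 5 in 1A, 1 of 3 in 1B, 2 of 4 in 2B, 3 of 3 in 3A and 5 of 6 in 3B. In Dnmt1 KO it was 1 of 7 in A and 1 of 6 in B. The Dicer/Dnmt1 KO share was 1 of 4. This split was picked after the reads were seen, and whether it differs between genotypes was not tested.

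Reads from the surroundings were sparse. Of 43 protein-coding genes within 1 Mb of Clcn5, 28 had a read, none had more than 10 and none could be tested. Of the 9 genes of the CLC chloride channel and transporter family, 7 had a read. After Clcn5 with 594 reads came Clcn6 with 10, a late endosomal exchanger, and Clcn3 with 9, an exchanger of endosomes and synaptic vesicles. Of the genes that make and load miRNAs, 10 were in the table and 9 had a read, with 30 for Drosha, which frees the hairpin, and 9 for Dicer1. Mir329, the only seed sharer in the table, had 7 reads, of which 0 were in WT.

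The other X-linked miRNAs that could be tested, 16 of 103, had a median log2 fold change of 1.32 in Dnmt1 KO against WT, with 3 called higher and 1 lower, beside a median of 1.40 over the 132 miRNAs and 0.13 over all features. In Dicer/Dnmt1 KO against WT their median was -2.59, with 1 called higher and 10 lower, beside -2.79 over the miRNAs and -0.09 over all features. Between the 2 knockouts it was -3.79, with 12 lower and none higher, beside -4.18 over the miRNAs and -0.16 over all features. All features were called at 6.88%, 24.2% and 22.8% in these comparisons. The X-linked medians lay close to those of all miRNAs, but their summed level did not follow the median in Dnmt1 KO. The 103 together summed to 29035 to 51391 RPM in WT, 10136 to 12685 RPM in Dnmt1 KO and 918 to 5155 RPM in Dicer/Dnmt1 KO. All miRNAs summed to 289387 to 693285 RPM in WT and 625721 to 652561 RPM in Dnmt1 KO.

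Markers of other cells moved between the groups as well. Feeder fibroblasts, on which ESCs can be grown, are rich in Mir21 and Mir22. Of 7 fibroblast markers 6 were in the table and 5 had a read, with Mir199a-1 at 0. Their sum was 8679 to 14336 RPM in WT, 33999 to 40973 RPM in Dnmt1 KO and 6702 to 20433 RPM in Dicer/Dnmt1 KO. Mir22 was higher in Dnmt1 KO than in WT by 2.62 (log2, adjusted p = 0.00762 in limma) and Mir21 by 1.73 (adjusted p = 0.0216). Mir10b, also tested, was at 1.23 (adjusted p = 0.569). Mir214 and Mir199a-2, with 16 and 1 reads in all, were not tested. In this comparison the median of the 132 miRNAs tested was 1.40, and 28 of them were called higher. The sum of the ESC markers was 55926 to 99648 RPM in Dnmt1 KO and 1221 to 3797 RPM in Dicer/Dnmt1 KO. Its members did not go one way in Dnmt1 KO against WT, with Mir302a at -2.18 (log2, adjusted p = 0.122 in limma) and Mir290 at 1.54 (adjusted p = 0.331), and Mir302c and Mir367 had 0 reads in both knockout groups. The 4 blood and endothelial markers, 4 of 4 with a read, summed to 848 to 1091 RPM in WT, 1241 to 1403 RPM in Dnmt1 KO and 0 to 122 RPM in Dicer/Dnmt1 KO. In Dnmt1 KO against WT these markers did not move together. Mir126 was at 2.42 (log2, adjusted p = 0.0580 in limma), Mir142 at 0.41 (adjusted p = 0.812) and Mir150 at -0.92 (adjusted p = 0.606). Mir223 had 1 read in all. The part of other cells in the Mir532 levels was not tested, and in bulk libraries more cells of a type and more RNA per cell cannot be told apart.

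The features whose pattern over the 12 libraries was most like the sum of the 5 miRNAs, by Pearson correlation of log2 values over 681 tested features outside Clcn5, were Ctdsp1 and Mir26b (both r = 0.97), Mir298 and Mir484 (both r = 0.97) and Mir126 (r = 0.95). The points share libraries, scaling and genotype groups, and no p is given. Mir26b lies inside Ctdsp1, so these were again 1 set of reads. The mean of Mir26b was 253 ± 140 RPM (SD, n = 6) for WT, 1235 ± 159 RPM (SD, n = 2) for Dnmt1 KO and 61.9 ± 44.3 RPM (SD, n = 4) for Dicer/Dnmt1 KO. The mean of Mir298 was 549 ± 213 RPM (SD, n = 6) for WT, 1604 ± 137 RPM (SD, n = 2) for Dnmt1 KO and 189.7 ± 126 RPM (SD, n = 4) for Dicer/Dnmt1 KO. Like Mir532, each was highest in Dnmt1 KO and lowest in Dicer/Dnmt1 KO, an order that follows from how they were picked. It is also common among miRNAs. Of the 132 tested, 109 had a positive fold in Dnmt1 KO against WT, 34 in Dicer/Dnmt1 KO against WT and 5 between the knockouts. Mir126, a miRNA of endothelium, had 0 reads in all Dicer/Dnmt1 KO libraries, whereas Mir532 kept reads in 4 of 4.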

How the data were processed

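Small RNA-seq of mouse ESCs was analysed in 12 libraries of 3 genotypes, grouped by the labels. As the study's methods state, reads were trimmed by the authors, kept at 20 to 24 nt, mapped to NCBIM37 and counted by their overlaps with features in SeqMonk. The submitters' processing notes name Trim Galore 0.3.5 and Bowtie2 2.2.6, while the paper lists another Trim Galore version, without a version in its small RNA methods. The deposited values are log2 RPM, with 0 reads written as 0.9 read. Whole reads were recovered for 100% of values (tolerance 0.1 read). The table's other 89 value columns match no sample here and were left out. Placement of multi-mapping reads is not given in the sources used here, and counting did not separate strands.

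Features with at least 111 RPM (10 reads at the median depth) in 2 libraries and 15 reads in total were scaled by TMM (trimmed mean of M values, with 30% of ratios and 5% of abundances cut off and factors from the tested features) and tested as log2(RPM + 10) with limma 3.58.1 in R 4.3.3, using its trended prior, 1 fit over 3 groups and Benjamini-Hochberg adjustment at 0.05 over all features tested. Folds on this scale understate changes of low features. The unit being log2, no count model was run. TMM factors from all features with a read were computed first and replaced after the results were seen. Both are reported. The script was tested on simulated data.

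Members and gene lists were chosen with earlier results of these data known. All members are named, with the 5 most similar features outside Clcn5 and the highest list members. Alternatives were other scalings, pseudocounts of 1 and 50, no filter, voom, A and B summed, culture as a random effect, subsets of libraries and a replicate block. A and B pairs differed beyond sampling noise (chi-square per degree of freedom 13.6 to 42.5), which does not make them independent. They stayed separate in the reported fit, although the estimated correlation within a culture was 0.30. Sequences came from RefSeq (GRCm38.p6), with exact matches in NCBIM37, folding by RNAfold 2.7.2 and alignment by Biopython 1.88. Figures and intervals used Python 3.11.15, matplotlib 3.10.9 and scipy 1.17.1. Dixon's test was used to look for single libraries that stand apart.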

Additional observations from a re-analysis of the deposited data

Results flagged for a closer look

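Of 14 groups of values examined, 3 held a library far from the others by Dixon's criterion, which chance meets in about 1 of 20 groups. All 3 rest on 1 to 3 reads in a group whose other libraries had none. Such a group always meets the criterion, so the rate of 1 in 20 does not apply to these flags. Mir188 was at 15.8 RPM in Dicer/Dnmt1 KO 2A, from 1 read. Mir501 was at 47.3 RPM in the same library, from 3 reads. Mir500 was at 6.95 RPM in WT 3B, from 1 read.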

How the results depend on the processing

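Mir532 and Clcn5 share their reads, so the 2 members called in each comparison are 1 measurement. The count of 2 held under medians of ratios, TMM without miRNAs, a pseudocount of 50, voom and without the E14 2 culture in all 3 comparisons. In Dnmt1 KO against WT it was 0 with library reads alone, with a pseudocount of 1 and without a filter. It was also 0 with culture as a random effect and with only the 2 groups compared. So it was with TMM over all features with a read, which was run first and replaced after the results were seen. With A and B summed, which leaves 1 Dnmt1 KO sample, the log2 fold of Mir532 was 1.93. The count ran from 0 to 2 when 1 library was left out. In Dicer/Dnmt1 KO against WT it was 0 with library reads alone, without a filter, with A and B summed and with the replicate block, 1 with only the 2 groups compared, and from 1 to 2 when 1 library was left out. In Dicer/Dnmt1 KO against Dnmt1 KO it was 0 only without a filter and 2 whichever library was left out. The fit without a filter takes in 14232 features, most with a few reads.

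With the replicate block, Mir532 was at -1.83 (adjusted p = 0.136 in limma) and Clcn5 at -1.66 (adjusted p = 0.183), and 116 features were called in place of 165. The correlations of same-numbered libraries, as deviations from their group means, were -0.23, 0.11, -0.17 and -0.29. No pairing was seen, but these few values cannot exclude a shared batch. Clcn5 less its miRNA reads, without a filter, changed sign in all 3 comparisons, to -0.32, 0.73 and 1.05. These folds rest on the few reads left, 3 in WT, 0 in Dnmt1 KO and 8 in Dicer/Dnmt1 KO.

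Over all features, 47 were called in Dnmt1 KO against WT, and 31 with a pseudocount of 1, 28 with TMM over all features, 30 with culture as a random effect, 17 with A and B summed, 80 with voom, 181 without the E14 2 culture, 84 without WT 2A, 19 without Dnmt1 KO A and 16 without Dnmt1 KO B. With library reads alone, 84 of 200 calls in Dicer/Dnmt1 KO against WT were higher, against 35 of 165 with TMM. Depth limits the 4 low miRNAs most, since 3 reads are worth 344 RPM in the shallowest library.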
